A study of Mus musculus with 60 samples.

Results

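The genes described are 10 genes for trophic factors and for the receptor of colony-stimulating factor 1, followed in microglia sorted after a neonatal stroke. They are Csf1r, its ligand Csf1, insulin-like growth factor 1 (Igf1), progranulin (Grn), the platelet-derived growth factors Pdgfa and Pdgfb, vascular endothelial growth factor A (Vegfa), heparin-binding EGF-like growth factor (Hbegf), oncostatin M (Osm) and Gdf15. The members were taken by symbol, and each of the 10 had a row among the 55413 gene symbols of all 4 deposited expression tables.

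All mice carried Spp1-CreER with the R26-Tdtomato reporter and all had a stroke on postnatal day 6, so no group came from an uninjured animal. The inducible Cre was driven by the promoter of Spp1 (osteopontin), so red cells (Tdt+) are those with a past of Spp1 promoter activity, whatever they express at the sort. There were 52 bulk RNA libraries, each of 2000 flow-sorted microglia, with values in TPM, a length-corrected abundance scaled to a fixed total per library. Separate tables held day 7 (postnatal day 13, 3 libraries a group) and day 28 (postnatal day 34, 4 a group), each with microglia of the contralateral cortex, Tdt- microglia of the stroke cortex and Tdt+ microglia of the stroke cortex. Another table held the same groups at day 28 after lipopolysaccharide (LPS, a bacterial endotoxin; 4 a group), for which the labels give no dose or timing. The time course table held Tdt+ microglia of the stroke cortex at days 3, 7 and 14 (postnatal days 9, 13 and 20; n = 5 each) and day 28 (postnatal day 34; n = 4), so days after injury and age cannot be told apart in it. The contralateral group was matched to the columns named contralateral Tdt-, a choice that its labels do not settle. Mice per bulk library are not given in the sources used here.

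CSF1R is a receptor tyrosine kinase on which microglia depend for survival, and CSF1 and interleukin 34 are its ligands. IGF1 is a growth factor for neurons and oligodendrocytes that phagocytic microglia of the early postnatal brain are known to make, and progranulin is a secreted and lysosomal protein whose loss causes frontotemporal dementia in humans. The PDGF chains act on oligodendrocyte precursors and pericytes, oncostatin M is a gp130 cytokine, and VEGFA acts on endothelium. HB-EGF is shed from the cell surface to act on EGF receptors, and GDF15 is a cytokine induced by the integrated stress response.

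The stretches before the start sites of Igf1, Csf1 and Grn are shown first, since Igf1 and Csf1 led the falls with time and Grn is the most abundant ligand. RefSeq (GRCm38.p6) windows were found for 6 of the 10 members, and each stretch is the 250 bases upstream of a RefSeq start, 5′ to 3′ on the gene's strand, with capitals at matches to 7 motifs. The motifs were chosen with these sequences in view.
Igf1 (chr10:87860861-87861110, + strand): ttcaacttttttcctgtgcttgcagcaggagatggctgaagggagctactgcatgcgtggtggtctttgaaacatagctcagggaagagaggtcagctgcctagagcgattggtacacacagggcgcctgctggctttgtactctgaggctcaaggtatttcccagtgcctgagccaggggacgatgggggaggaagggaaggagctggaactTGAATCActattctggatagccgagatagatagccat
Csf1 (chr3:107760470-107760719, - strand): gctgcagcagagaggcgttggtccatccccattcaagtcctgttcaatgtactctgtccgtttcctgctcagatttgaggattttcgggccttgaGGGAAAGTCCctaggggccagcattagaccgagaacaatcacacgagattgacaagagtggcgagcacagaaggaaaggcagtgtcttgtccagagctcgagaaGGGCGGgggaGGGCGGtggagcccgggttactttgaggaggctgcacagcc
Grn (chr11:102430257-102430506, + strand): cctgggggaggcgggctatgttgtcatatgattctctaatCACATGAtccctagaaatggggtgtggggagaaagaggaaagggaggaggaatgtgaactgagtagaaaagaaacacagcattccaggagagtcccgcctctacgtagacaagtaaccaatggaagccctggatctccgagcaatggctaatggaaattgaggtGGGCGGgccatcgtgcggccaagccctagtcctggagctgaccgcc

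Both strands were searched. The kB site, bound by Rel factors, was GGGAA and TCC with any 2 bases between, and the AP-1 site was TGANTCA. The M-box of the MiT and TFE factors was TCATGTG, and the E-box that they share with Myc was CACGTG. The PU.1 site was GAGGAAGT and the cyclic AMP response element was TGACGTCA. The GC box, bound by Sp factors, was GGGCGG. The Igf1 start used lies inside the gene's annotated interval. In the Csf1 stretch the capitals mark 1 kB match, 155 to 146 bases before the start, and 2 GC boxes. The kB pattern stood in 1.09% and the GC box in 32.7% of the 32851 RefSeq windows of that length. The Igf1 stretch held 1 AP-1 match, 37 to 31 bases before the start, a pattern in 6.75% of windows. The Grn stretch held 1 M-box match on the reverse strand, 210 to 204 bases before the start, a pattern in 3.25% of windows, and 1 GC box. The E-box stood in 6.02%, the PU.1 pattern in 2.44% and the cyclic AMP pattern in 1.55% of windows, and none of these 3 was in the printed stretches. A match is a pattern of letters and was not tested for binding.

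Facts of the whole set bear on the members as follows. TPM keeps no read depth, so no counting interval can be given, and 11544 to 14093 genes reached 1 TPM in a library. All 5 microglia markers (Tmem119, P2ry12, Cx3cr1, Siglech, Sall1) were above 0 in every library, and none of 10 housekeeping genes was listed at 0 anywhere. In the time course the summed microglia markers were 4098 to 5618 TPM at day 3 and 12100 to 16560 TPM later. The summed border macrophage markers (Mrc1, Pf4, Cd163, Lyve1, F13a1, Ms4a7) went the other way. They were 175.5 to 216.9 TPM at day 3 and 8.38 to 37.1 TPM later. Cd163 and Lyve1 were at 0 in every later library, but reached at most 3.65 and 9.67 TPM in any library. The day 3 sums thus lay mostly in the other genes of that list. The part of both marker sums in the changes given below was not tested. The median log2 difference of all genes was 0.18, 0.14 and 0.18 for days 7, 14 and 28 against the time before, and 0.56 for day 28 against day 3, while the 50 most abundant genes took 39.2 to 42.0% of TPM at day 3 and 32.9 to 36.7% at day 28. In these bulk samples fewer cells of a type and less RNA per cell cannot be told apart.

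By level the members fell into very abundant, moderate and near-absent genes. Csf1r was the highest member in all 52 libraries, at 3402 to 7710 TPM and rank 9 to 32 of all symbols. Grn was second in all 52, at 1194 to 3328 TPM and rank 35 to 87. Pdgfb ranged from 3.68 to 41.4 TPM, Pdgfa from 1.80 to 30.1, Csf1 from 1.47 to 30.7 and Osm from 3.77 to 215. Igf1 ran from 0 in 3 libraries to 238 TPM. Hbegf reached at most 13.98 TPM and was listed at 0 in 6 libraries, and Gdf15 was listed at 0 in 27 and reached 1 TPM in 6. Vegfa was listed at 0 in 51 of 52 libraries and at 0.11 TPM in the other. Vegfa was too low to be tested in any table, Gdf15 in all but the day 7 table, Hbegf in the day 7 and LPS tables and Igf1 in the LPS table.

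The 10 genes lie apart in the genome (RefSeq, GRCm38.p6). Igf1 is at chr10:87858265-87937047, Csf1 at chr3:107741048-107760469, Grn at chr11:102430507-102436809 and Csf1r at chr18:61105572-61131139. Pdgfa is at chr5:138976014-139000792, Pdgfb at chr15:79995865-80024614, Osm at chr11:4236785-4241026 and Hbegf at chr18:36504927-36515805. Vegfa is at chr17:46016993-46032377 and Gdf15 at chr8:70629393-70632470.

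Partners of the members were unequally present in the same libraries. Il34, the other ligand of CSF1R, was listed at 0 in all 52. Receptors for the PDGF and EGF-like ligands were at or near 0, with Pdgfra at most 0.38, Pdgfrb at most 0.72 and Egfr at most 0.22 TPM. The oncostatin receptor chain Osmr reached at most 0.47 TPM, while its partner Il6st (gp130) was at 9.69 to 295 TPM. The IGF1 receptor gene Igf1r was at 1.5 to 29.7 TPM, and Sort1, whose product sortilin takes progranulin up, at 13.2 to 97.8 TPM. Microglia of these sorts thus carried RNA for the ligands PDGF-A, PDGF-B and oncostatin M with little or none for their specific receptors.

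In the time course of Tdt+ microglia, the mean of Igf1 was lower at each later day. That of Csf1 was lower at day 7 and higher again at day 14. Between day 3 and day 7, 6 of the 8 tested members passed the test (limma, adjusted p under 0.05 over all genes). Csf1r, Pdgfb and Hbegf were higher at day 7, as were 9.93% of all tested genes, and Igf1, Csf1 and Grn lower, as were 4.42%. From day 7 to day 14 Csf1 rose (4.46% of genes did) and Igf1 fell (1.54%), and from day 14 to day 28 no member rose (4.06%) and Igf1 fell (2.21%). At day 28 against day 3 Csf1r, Pdgfa and Pdgfb were higher, as were 35.6% of genes, and Igf1, Csf1 and Grn lower, as were 7.97%. Values of the 8 tested members did not overlap between the groups for 5 members at day 7 against day 3 (12.5% of all genes), 1 at day 14 against day 7 (5.72%), 1 at day 28 against day 14 (8.61%) and 6 at day 28 against day 3 (35.4%). That last comparison shares its libraries with the others. Its share of higher genes is large, and scaling decided its direction for many genes: 5460 genes were higher and 1221 lower at day 28 as tested, 2021 and 2026 after quantile normalization, and 1676 and 2377 after median-of-ratios scaling. The same splits were 1521 and 677, 904 and 886, and 741 and 1245 for day 7 against day 3. For day 14 against day 7 they were 683 and 236, 367 and 317, and 300 and 361, and for day 28 against day 14 they were 622 and 339, 371 and 428, and 308 and 620.

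**Figure D1:**
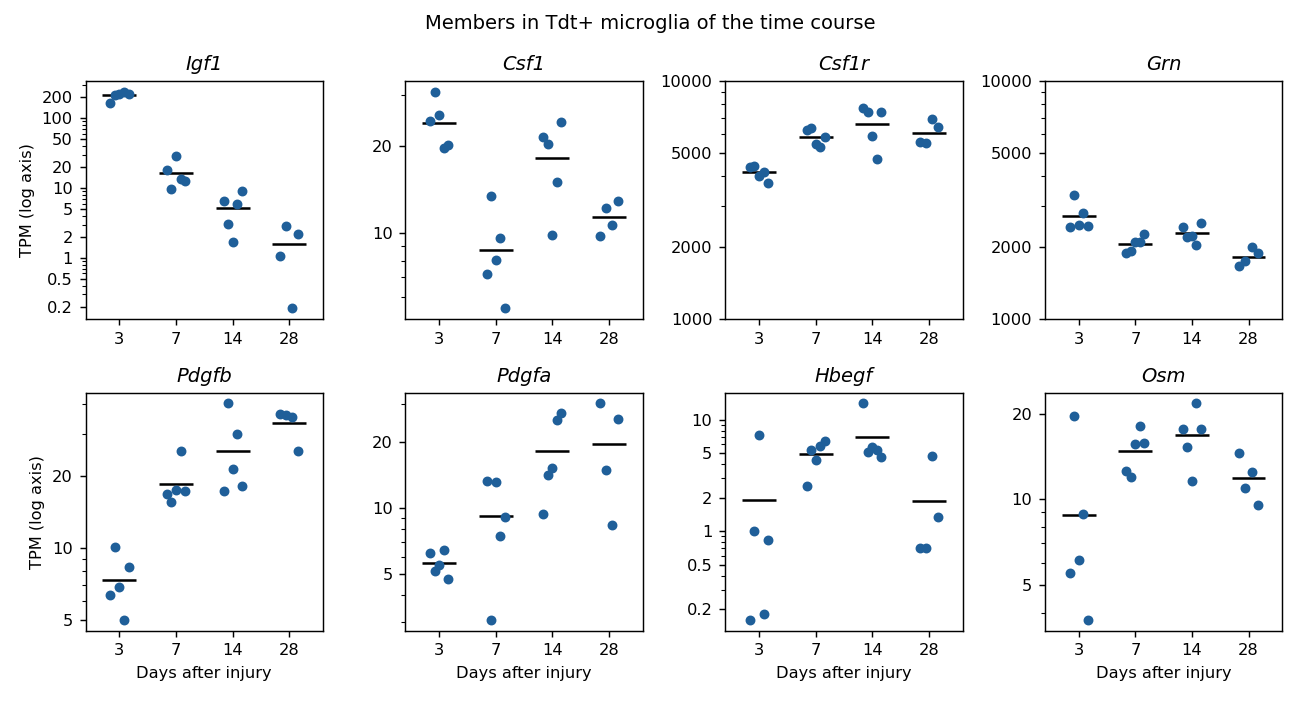
TPM on a log axis of 8 members in each Tdt+ library of the time course against days after injury; points are libraries (n = 5, 5, 5 and 4) and bars group means. Igf1 steps down from 164 to 238 TPM at day 3 to at most 2.88 TPM at day 28, Pdgfb steps up, and Csf1 has its lowest mean at day 7.

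Igf1, the growth factor of the set, changed most. At day 3 the libraries held 164, 216, 218, 238 and 223 TPM. At day 7 they held 17.9, 9.82, 28.34, 13.4 and 12.6 TPM, at day 14 6.48, 3.02, 1.69, 5.82 and 9.18 TPM, and at day 28 1.05, 2.88, 0.19 and 2.23 TPM. Every day 3 library lay above every later one, day 7 and day 14 did not overlap, and days 14 and 28 did. From day 3 to day 7 Igf1 fell by 3.69 ± 0.35 on the log2(TPM + 1) scale (± SE; limma, adjusted p = 3.29e-07), a 12.9-fold drop on that scale, and by 1.54 ± 0.35 from day 7 to day 14 (adjusted p = 0.0103). The step from day 14 to day 28 was -1.26 ± 0.38 (adjusted p = 0.0494), and this call was lost on leaving out any 1 of day 14 libraries 1, 4 and 5 or day 28 libraries 1, 3 and 4, with adjusted p from 0.0511 to 0.181. That call was also lost without a filter on low values, without an intensity trend and with only the groups compared. With replicate number as a block its adjusted p was 0.0879. Over the whole course Igf1 fell by 6.49 ± 0.38 (adjusted p = 7.92e-11). Border macrophage markers fell over the same first interval, as given above. Summed monocyte markers (Ly6c2, Ccr2, Fn1, Plac8, Chil3) were 409.9 TPM in 1 day 3 library where the lowest had 14.15, and Igf1 in the former was 164 TPM. That sum was almost all Fn1, at 407.08 TPM, and Ly6c2 and Chil3 were at 0 in every day 3 library.

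Csf1, the ligand made beside the receptor, was 24.3, 30.7, 25.5, 19.6 and 20.0 TPM at day 3 and 7.2, 13.4, 8.07, 9.56 and 5.47 TPM at day 7. The day 3 libraries all lay above the day 7 libraries. At day 14 it was 21.4, 20.3, 9.85, 15.0 and 24.1 TPM, and at day 28 it was 9.73, 12.2, 10.6 and 12.8 TPM. It fell by 1.39 ± 0.25 on the log2 scale to day 7 (limma, adjusted p = 0.000517), rose by 0.97 ± 0.25 to day 14 (adjusted p = 0.0201) and was 0.58 lower at day 28 without passing the test (adjusted p = 0.195). The rise to day 14, with 1 library of day 14 inside the day 7 range, lost its call on leaving out day 7 library 5 or day 14 library 1, 2 or 5 (adjusted p from 0.0529 to 0.0671) and under both other scalings. Day 28 stood below day 3 by -1.01 ± 0.26 (adjusted p = 0.00402), with no overlap, under every alternative tried.

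Csf1r followed another course. Its TPM was 3730 to 4411 at day 3 (median 4152), 5279 to 6365 at day 7 (median 5801), 4694 to 7710 at day 14 (median 7396) and 5503 to 6900 at day 28 (median 5955). Day 3 lay below all later groups, and the later groups overlapped. Csf1r was higher at day 7 than at day 3 by 0.49 ± 0.12 (limma, adjusted p = 0.00589), which is 0.31 above the median of all genes, but by 0.24 (adjusted p = 0.145) after median-of-ratios scaling. Its rise of 0.55 ± 0.12 from day 3 to day 28 (adjusted p = 0.00116) equalled the median shift of all genes, and under median-of-ratios scaling it was -0.09 (adjusted p = 0.605). Relative to other genes Csf1r was thus at 0 log2 difference between day 3 and day 28.

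Grn was 2428, 3328, 2478, 2792 and 2466 TPM at day 3 and 1899, 1937, 2105, 2099 and 2268 TPM at day 7. At day 14 it was 2447, 2209, 2243, 2048 and 2530 TPM, and at day 28 it was 1674, 1754, 2010 and 1888 TPM. The highest day 7 library lay under the lowest of day 3, and all of day 28 lay under all of day 14. It fell by 0.38 ± 0.09 to day 7 (limma, adjusted p = 0.00745) and was 0.55 ± 0.10 lower at day 28 than at day 3 (adjusted p = 0.00014). The first call was lost without an intensity trend (adjusted p = 0.0639), and the second after quantile normalization (-0.05, adjusted p = 0.754). From day 14 to day 28 the difference was -0.32 ± 0.10 (adjusted p = 0.0507), which passed without day 14 library 4 (adjusted p = 0.0433).

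The PDGF chains moved the other way. Pdgfb, which acts as the PDGF-BB homodimer on pericytes, was 6.35, 10.1, 6.91, 5.01 and 8.35 TPM at day 3 and 16.8, 15.6, 17.4, 25.5 and 17.4 TPM at day 7. At day 14 it was 17.3, 40.1, 21.5, 29.9 and 18.2 TPM, and at day 28 it was 36.2, 35.9, 35.3 and 25.5 TPM. All later libraries lay above all of day 3. Pdgfb rose by 1.24 ± 0.23 to day 7 (limma, adjusted p = 0.000937) and stood 2.05 ± 0.25 higher at day 28 than at day 3 (adjusted p = 1.48e-06), 1.5 above the median of all genes, and both calls held under every alternative tried. Summed endothelial markers (Pecam1, Kdr, Flt1, Vwf, Cldn5) moved with it, at 3.16 to 7.62 TPM at day 3, 9.94 to 18.54 TPM at day 7, 8.81 to 20.04 TPM at day 14 and 17.75 to 29.69 TPM at day 28. Cldn5 was at 0 in all time course libraries. Medians over all 52 libraries were 11.04 TPM for Pecam1, 0.935 for Kdr, 0.045 for Vwf and 0.02 for Flt1, so the sum rested mostly on Pecam1. The part of the list was not tested. Pdgfa, the chain that stimulates oligodendrocyte precursors, had 4.72 to 6.42 TPM at day 3 and 8.36 to 30.1 TPM at day 28 without overlap. Its difference of 1.51 ± 0.39 (adjusted p = 0.00374) did not pass after quantile normalization (0.86, adjusted p = 0.139) or median-of-ratios scaling (0.94, adjusted p = 0.097), and no single step passed.

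Hbegf, Osm and Gdf15 were lower and more uneven. Hbegf was 0.16, 1.01, 7.24, 0.18 and 0.84 TPM at day 3, 2.53 to 6.45 TPM at day 7, 4.64 to 13.98 TPM at day 14 and 0.71, 0.70, 4.73 and 1.35 TPM at day 28. 1 library each at days 3 and 28 overlapped the higher groups. The difference of 1.44 ± 0.48 between day 7 and day 3 (limma, adjusted p = 0.0495) was lost on leaving out any library but day 3 library 3 and day 7 library 1 (adjusted p from 0.0676 to 0.133), and in 7 of 8 other alternatives, none of which left out a library (adjusted p from 0.0523 to 0.119). Osm was 3.77 to 19.6 TPM at day 3 and 12 to 18.1 TPM at day 7, a difference of 0.88 ± 0.30 (adjusted p = 0.0535), and without the day 3 library at 19.6 TPM it was 1.19 (adjusted p = 0.0027). Without that library Osm was also 0.90 higher at day 28 than at day 3 (adjusted p = 0.00968), against 0.58 (adjusted p = 0.144) with it. Gdf15 was 0.90, 1.93, 0.89, 1.72 and 0.80 TPM in the day 3 libraries and at most 0.72 TPM in any later one, with all 4 day 28 libraries at 0; it was below the limit for testing.

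**Figure D2:**
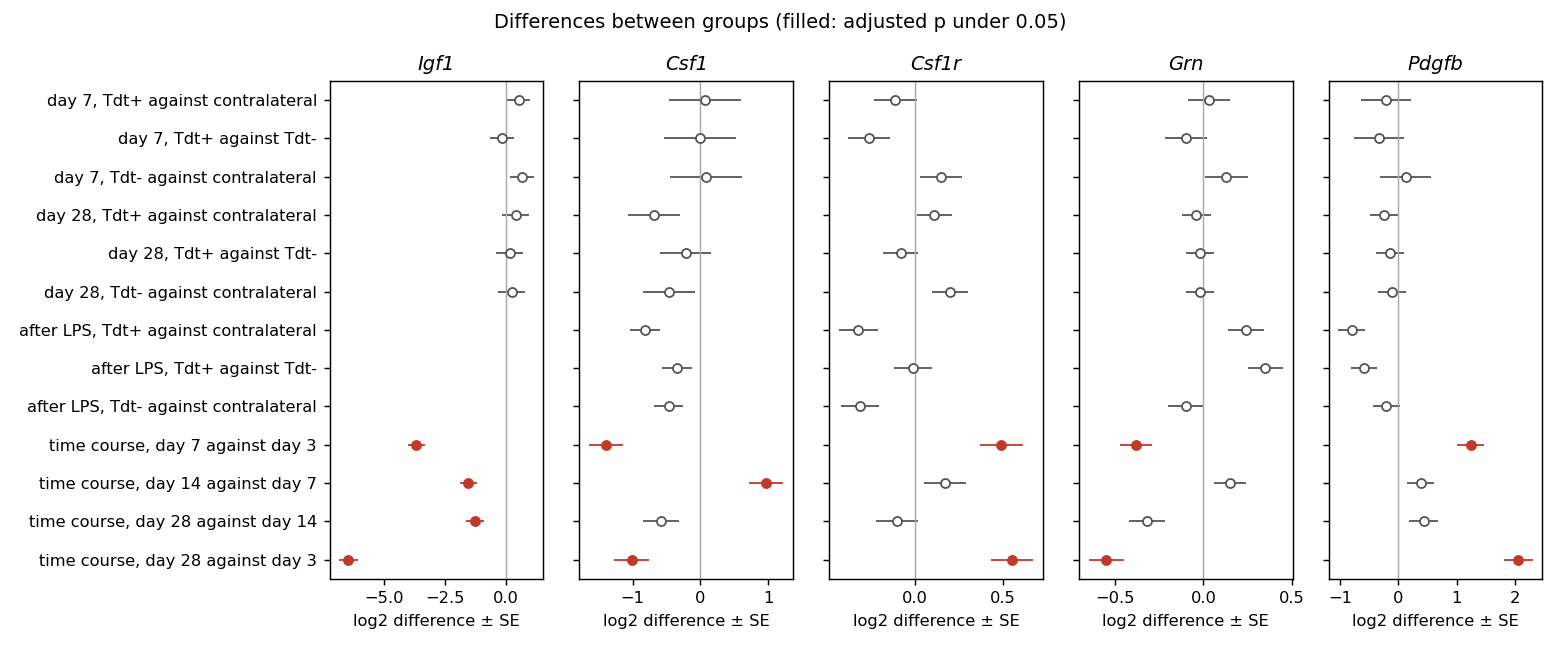
Log2 difference ± SE from the limma fits for 5 members (columns) in each comparison (rows, first group against second); filled red points have an adjusted p under 0.05 and open points do not, and axes differ between columns. Filled points stand in the time course alone, where Igf1 reaches -6.49; Igf1 has no points after LPS because it was too low to be tested.

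Genes of the members' pathways, from lists drawn up with earlier results of these data known, changed in both directions over the course. The CSF1R axis list also held receptor genes of other colony-stimulating factors (Csf2ra, Csf2rb, Csf2rb2 and Csf3r). In this list 7 of 11 tested genes were higher and 2 lower at day 28 than at day 3. Its median log2 difference was 0.53 against 0.56 for all genes, of which 35.6% were higher and 7.97% lower. Inpp5d (the phosphatase SHIP1) was higher by 1.27 ± 0.15 (limma, adjusted p = 7.85e-07), Csf3r by 1.12 ± 0.13 (adjusted p = 1.42e-06), and Csf2ra, the GM-CSF receptor chain, was lower by -1.22 ± 0.20 (adjusted p = 7.85e-05). The adaptor gene Tyrobp was -0.39 ± 0.09 (adjusted p = 0.00198) but 0.12 (adjusted p = 0.381) after quantile normalization. Of 5 tested genes of the IGF axis, 3 were higher and 2 lower. Igfbp4, which binds IGF1, fell from a mean of 153 to 27.0 TPM, by 2.48 ± 0.28 (adjusted p = 5.78e-07), and the insulin receptor gene Insr rose by 0.93 ± 0.14 (adjusted p = 3.2e-05), but by 0.29 (adjusted p = 0.201) after median-of-ratios scaling. Igf1 and the gene of its binding protein Igfbp4 thus both fell over the course.

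Beside the counts that follow, 35.6% of all genes were higher and 7.97% lower at day 28 than at day 3. Of 7 progranulin partners 1 was higher and 3 were lower. Sort1 rose by 1.68 ± 0.17 (limma, adjusted p = 1.7e-07) and the cathepsin gene Ctsl fell by 1.37 ± 0.09 (adjusted p = 3.83e-10). Slpi, whose product shields progranulin from elastase, was 4.49 to 18.3 TPM in the day 3 libraries and listed at 0 at every later day, so no fold is given. Among gp130 genes 5 of 8 tested were higher, led by the cytokine gene Clcf1 with 2.46 ± 0.21 (adjusted p = 1.29e-08) and by Il6 with 1.4 ± 0.48 (adjusted p = 0.0218), of which the Il6 call was lost after either other scaling (adjusted p = 0.158 and 0.117) and without day 3 library 1 or 3 or day 28 library 2 (up to 0.0756). The EGF family list, which also held the sheddase genes Adam10 and Adam17 and the gene Cd9, had 4 of 5 tested genes higher. Among them Tgfa was higher by 1.44 ± 0.25 (adjusted p = 0.000121) and Adam10 by 1.27 ± 0.26 (adjusted p = 0.000566). In the PDGF and VEGF axis Vegfb (-2.24 ± 0.48, adjusted p = 0.00083) and the co-receptor gene Nrp1 (-0.67 ± 0.15, adjusted p = 0.00109) were the 2 lower genes of 4 tested, and none was higher. Of 5 other neurotrophic factors 1 passed, Tgfb1, which was higher by 1.86 ± 0.26 (adjusted p = 1.12e-05). In the integrated stress response 2 of 6 were higher, Ddit3 by 1.25 ± 0.26 (adjusted p = 0.000709) and Atf4 by 0.53 ± 0.12 (adjusted p = 0.00107). After median-of-ratios scaling these were 0.64 (adjusted p = 0.0707) and -0.10 (adjusted p = 0.514). Of 8 immediate early genes 4 were higher, led by Junb with 1.83 ± 0.13 (adjusted p = 1.8e-09) and Egr1 with 1.36 ± 0.42 (adjusted p = 0.0129), the latter not passing after either other scaling (adjusted p = 0.216 and 0.147) or without day 28 library 1 (0.0686).

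The first step held part of these changes. By day 7 Clcf1 was 1.93 ± 0.20 (limma, adjusted p = 7.08e-07) and Il6st 0.92 ± 0.13 (adjusted p = 3.09e-05) above day 3, Igf1r was 1.05 ± 0.32 (adjusted p = 0.0288) and Irs2 0.90 ± 0.30 above (adjusted p = 0.0459), and Ctsl was 0.81 ± 0.08 below. The calls of Igf1r and Irs2 were lost under both other scalings (adjusted p from 0.097 to 0.102), that of Irs2 on leaving out any 1 library, and that of Igf1r without day 3 library 1, 4 or 5 or day 7 library 1, 2 or 4 (adjusted p from 0.0526 to 0.0885). From day 7 to day 14, as Csf1 rose, Il6ra rose by 1.17 ± 0.23 (adjusted p = 0.00295), Ctsd by 0.85 ± 0.11 (adjusted p = 7.04e-05) and Psap, the prosaposin gene, by 0.44 ± 0.08 (adjusted p = 0.00249). Il6 rose from a mean of 0.78 to 7.15 TPM (2.21 ± 0.45, adjusted p = 0.0041), and Nrp1 fell by 0.69 ± 0.14 (adjusted p = 0.00374). Psap fell again by 0.63 ± 0.09 from day 14 to day 28 (adjusted p = 0.000223). Its rise was lost after median-of-ratios scaling (0.25, adjusted p = 0.239) and its fall after quantile normalization (-0.31, adjusted p = 0.0828).

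At day 7 in the 3 sorted groups, no member of 8 tested passed in any of the 3 comparisons, and none had an unadjusted p under 0.05. Few genes passed at all: 0.0712% for Tdt+ against contralateral, 0.0158% for Tdt+ against Tdt- and 0.00791% for Tdt- against contralateral by limma, while 907, 662 and 718 genes had an unadjusted p under 0.05. Igf1 was 19.6, 20.0 and 18.3 TPM in contralateral libraries, 33.7, 28.9 and 31.8 TPM in Tdt- libraries and 75.9, 13.9 and 21.3 TPM in Tdt+ libraries. All Tdt- libraries lay above all contralateral ones, where 10.3% of genes did not overlap in either direction. The difference of Igf1 was 0.68 (95% interval -0.37 to 1.72, limma adjusted p = 0.93). No member was without overlap in Tdt+ against contralateral (12.3% of genes were) or against Tdt- (11.2%). The Tdt+ libraries spread on both sides of the contralateral ones, and the difference went from 0.54 with all libraries to -0.16 without the library at 75.9 TPM and to 1.03 without the one at 13.9 TPM. That highest Tdt+ library also had the highest summed border macrophage markers, 333 TPM, where the other Tdt+ libraries had 141.2 and 105.8 TPM; the part of those markers in the value was not tested.

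Csf1r, Grn and Csf1 had overlapping groups at day 7. Csf1r was 4162, 4159 and 3604 TPM in contralateral, 5007, 3873 and 4411 TPM in Tdt- and 4147, 3402 and 3529 TPM in Tdt+ libraries. The groups overlapped, with -0.26 for Tdt+ against Tdt- (95% interval -0.52 to 0, adjusted p = 0.916). Grn was 1350 to 1879 TPM over all 9 libraries of the table, and its Tdt+ against contralateral difference was 0.03 (95% interval -0.25 to 0.30). Csf1 was 4.86, 5.94 and 4.92 TPM in contralateral, 1.99, 9.91 and 7.76 TPM in Tdt- and 8.71, 3.80 and 5.00 TPM in Tdt+ libraries, with intervals of more than 1 log2 unit on either side of 0. Hbegf was listed at 0 in all 3 Tdt+ libraries and in 1 library of each other group, with at most 1.73 TPM elsewhere. Gdf15, tested in this table alone, was at most 1.65 TPM. Pdgfa spread from 1.80 to 20.6 TPM and Osm from 6.28 to 22.7 TPM across the same table.

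At day 28 without LPS the sorted groups again overlapped for nearly all members. None of the 8 tested members passed in any comparison and none had an unadjusted p under 0.05, and by limma 0% of all genes passed in each, with 585, 473 and 575 genes at an unadjusted p under 0.05. Igf1 was at 0.55 to 7.47 TPM over all groups of this table. Csf1 was 7.67, 5.86, 6.91 and 6.06 TPM in contralateral, 3.78, 5.61, 5.57 and 3.45 TPM in Tdt- and 4.37, 3.57, 7.36 and 1.47 TPM in Tdt+ libraries. All contralateral libraries lay above all Tdt- ones, as for 2.58% of genes not overlapping in either direction, with a difference of -0.46 (95% interval -1.27 to 0.34, adjusted p = 0.987). Csf1 in Tdt+ against contralateral was -0.68 (95% interval -1.48 to 0.13, adjusted p = 0.991). Csf1r was 3974 to 5822 TPM in contralateral, 5656 to 6291 in Tdt- and 5175 to 5991 in Tdt+ libraries, and the lowest contralateral library moved Tdt+ against contralateral from -0.01 without it to 0.11 with it. Grn was the steadiest member, at 1194 to 1374 TPM in all 12 libraries, with Tdt+ against contralateral at -0.04 (95% interval -0.21 to 0.13).

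The ligands of the PDGF, EGF and gp130 families overlapped between the groups of day 28. Pdgfb was 34.4, 36.7, 29.3 and 36.6 TPM in contralateral, 41.4, 37.6, 29.8 and 21.5 TPM in Tdt- and 32.8, 39.2, 23.8 and 21.5 TPM in Tdt+ libraries, and Pdgfa was 16.6 to 29.3 TPM in all 12. Osm was 14.7, 10.4, 25.6 and 16.3 TPM in contralateral and 7.70, 10.5, 13.2 and 9.87 TPM in Tdt+ libraries, a difference of -0.60 (95% interval -1.27 to 0.07, limma adjusted p = 0.991). Hbegf was 0.17 to 7.17 TPM, with an interval of -0.54 to 1.58 around 0.52 for the same groups. All of these intervals held 0, and no member was without overlap in Tdt+ against contralateral (2.68% of genes were) or against Tdt- (2.52%).

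**Figure D3:**
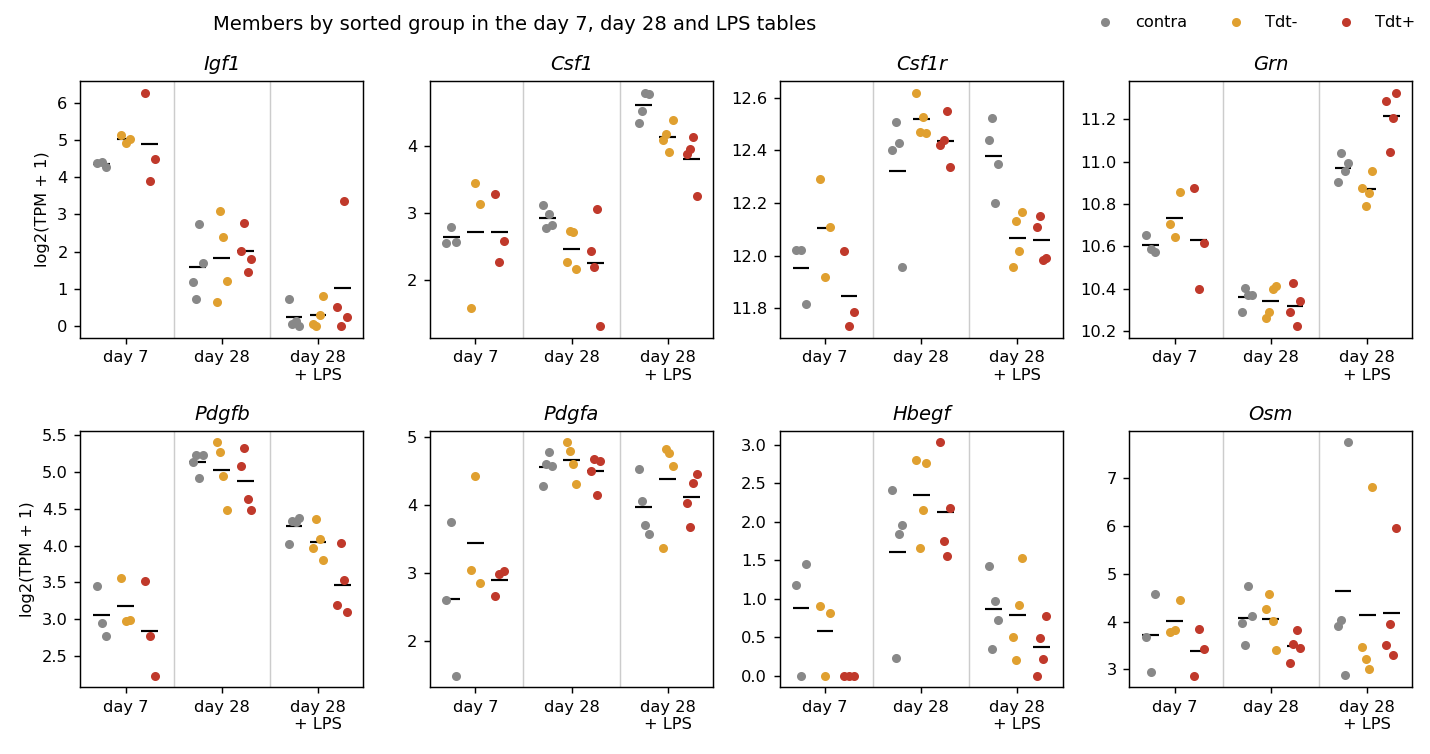
log2(TPM + 1) of 8 members by sorted group (grey contralateral, orange Tdt-, red Tdt+) in the day 7, day 28 and day 28 LPS tables; points are libraries and bars group means, and the tables were normalized separately. Groups overlap at days 7 and 28 for nearly all members. After LPS Csf1r and Csf1 of Tdt+ libraries lie below, and Grn above, all contralateral libraries, where 7.05% of genes do not overlap. None of these members passed by limma without a block for replicate number (adjusted p = 0.236, 0.119 and 0.35). The Csf1 difference was -0.68 without LPS and -0.81 after it, with an interaction of -0.13 ± 0.41 (limma, adjusted p = 0.984).

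After LPS the means of Csf1r, its ligand Csf1 and Pdgfb were lower, and that of Grn higher, in Tdt+ than in contralateral microglia. In Tdt+ against contralateral these 4 of 6 tested members had an unadjusted p under 0.05, as did 1534 of 13397 genes, but none passed adjustment over all genes, where 1.35% did by limma (120 genes higher and 61 lower, or 154 and 30 after median-of-ratios scaling). Samples of the same number moved together in this table, and with that number as a block 3 of the 6 passed, all lower, where 6.94% of genes passed, 4.53% lower and 2.41% higher. Csf1r, Csf1 and Grn, 3 of the 6, did not overlap between the groups, as for 7.05% of genes. The blocked count depended on single libraries: it was 0 to 2 on leaving out any 1 library, and 0 without the libraries numbered 4. Csf1r passed on its own without Tdt+ library 1 (adjusted p = 0.0412), contralateral 3 (0.0347) or contralateral 4 (0.043), and Pdgfb and Grn passed without contralateral 2 (0.0266 and 0.0418) or Tdt+ 2 (0.0227 and 0.0484).

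Csf1r was 5552, 5892, 4705 and 5213 TPM in contralateral, 3970, 4483, 4144 and 4598 TPM in Tdt- and 4417, 4544, 4050 and 4071 TPM in Tdt+ libraries. Both groups of the stroke side lay below all contralateral libraries, and Csf1r was the 1 member of 6 without overlap in Tdt- against contralateral, as 3.3% of genes were. Tdt+ against contralateral was -0.32 ± 0.11 (limma, adjusted p = 0.236; 0.021 with the block), 0.20 below the median of all genes, and -0.19 (adjusted p = 0.722) after median-of-ratios scaling. Tdt- against contralateral was -0.31 ± 0.11 (adjusted p = 0.737), and Tdt+ against Tdt- was -0.01 (95% interval -0.24 to 0.22). Summed microglia markers were 4328 to 9319 TPM in contralateral, 3882 to 7334 TPM in Tdt- and 3201 to 6686 TPM in Tdt+ libraries, so that the ranges overlapped. Within each of the 4 numbers the sum was highest in contralateral, lower in Tdt- and lowest in Tdt+ libraries, and its part was not tested.

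Csf1 was 19.4, 21.9, 26.8 and 26.5 TPM in contralateral, 15.98, 17.1, 14.02 and 20.0 TPM in Tdt- and 13.8, 14.45, 16.7 and 8.49 TPM in Tdt+ libraries. The Tdt+ values all lay under the contralateral ones, and the Tdt- values lay between with overlap. The difference of Tdt+ from contralateral was -0.81 ± 0.22 (limma, adjusted p = 0.119; 0.0496 with the block) and -0.56 (adjusted p = 0.155) without the libraries numbered 4. Pdgfb was 15.2, 19.2, 18.97 and 19.7 TPM in contralateral, 14.7, 19.5, 16 and 12.9 TPM in Tdt- and 8.16, 15.4, 10.5 and 7.57 TPM in Tdt+ libraries. Only the Tdt+ library at 15.4 TPM overlapped the contralateral group, and the difference was -0.80 ± 0.23 (adjusted p = 0.142; 0.0209 with the block). Summed endothelial markers were also lower in Tdt+ for every number, at 8.04, 12.7, 7.92 and 14.32 TPM in contralateral and 3.82, 6.4, 7.09 and 3.03 TPM in Tdt+ libraries without overlap. Cldn5 was at 0 in both groups, and by its medians over all libraries, given above, the list rests mostly on Pecam1. Its part was not tested.

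Grn was 1912, 2104, 1984 and 2038 TPM in contralateral, 1881, 1771, 1847 and 1984 TPM in Tdt- and 2500, 2116, 2361 and 2567 TPM in Tdt+ libraries. All Tdt+ libraries lay above all others. Summed monocyte markers (Ly6c2, Ccr2, Fn1, Plac8, Chil3) were 66.6, 42.5, 100.5 and 64.8 TPM in contralateral and 198.3, 77.5, 93.65 and 209.5 TPM in Tdt+ libraries of the same numbers. Tdt+ libraries 1 and 4 were highest in both Grn and these markers, whose part was not tested. Ly6c2 and Chil3 were at 0 in all Tdt+ libraries of this set, and Ccr2 reached at most 14.38 TPM in any library. The Tdt+ sums thus lay mostly in Fn1 and Plac8. Tdt+ against contralateral was 0.24 ± 0.10 (limma, adjusted p = 0.35) and Tdt+ against Tdt- 0.35 ± 0.10 (adjusted p = 0.718), which did not pass with the block either. Of the 6 tested members, Grn alone was without overlap in Tdt+ against Tdt-, as 3.15% of genes were, and 0% of genes passed there by limma (0.463% with the block), with 618 genes and 2 members at an unadjusted p under 0.05. In Tdt- against contralateral no member passed, where 0.0149% of genes did.

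Osm split the libraries by number rather than by group. It was 13.9, 15.4, 6.37 and 215 TPM in contralateral, 10.1, 8.32, 7.01 and 112 TPM in Tdt- and 10.4, 14.33, 8.89 and 61.3 TPM in Tdt+ libraries, the last of each group being number 4. The libraries numbered 4 stood apart in each group. Summed immediate early genes (Fos, Fosb, Jun, Junb, Egr1, Egr2, Ier2, Nr4a1, Dusp1) moved with it. They were at 3413, 2926 and 2060 TPM in those libraries and 415.4 to 647.3 TPM in the rest. Over all 52 libraries Fos reached at most 30.8, Egr1 105 and Jun 178 TPM. The maxima of Dusp1, Junb and Ier2 were 1359, 1347 and 579 TPM, so the highest sums lay mostly in these genes. Summed microglia markers were 4328, 3882 and 3201 TPM in those libraries and 5685 to 9319 TPM in the rest. Summed neutrophil markers (S100a8, S100a9, Ly6g, Cxcr2, Camp, Ngp) were 26.11, 18.97 and 3.27 TPM against 0 to 4.35 TPM, in contralateral libraries from Cxcr2 alone. The part of these lists was not tested. Igf1 was at most 0.74 TPM after LPS except for 1 Tdt+ library at 9.18 TPM, and Hbegf was at most 1.89 TPM. Pdgfa overlapped between all groups, at 9.30 to 27.4 TPM.

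**Figure D4:**
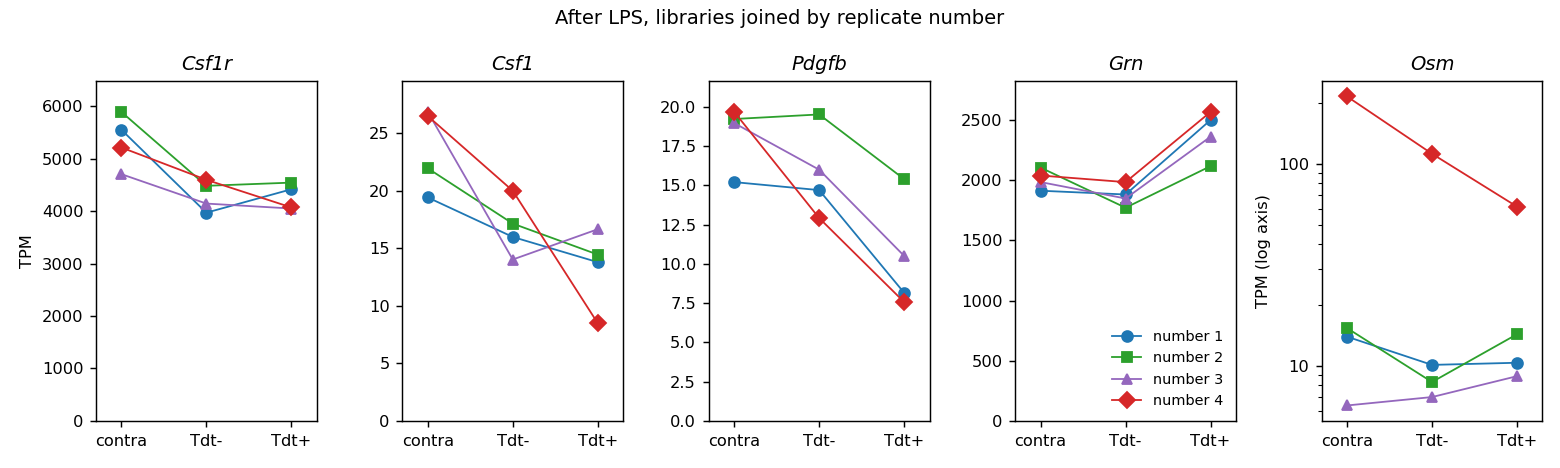
TPM of 5 members after LPS in contralateral, Tdt- and Tdt+ libraries; lines join libraries of equal replicate number, and the Osm axis is logarithmic. Csf1 and Pdgfb are lower in Tdt+ than in contralateral libraries for each number, Grn is highest in Tdt+ for each number, and Osm is set apart in number 4.

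Pathway genes beside the members passed without the block after LPS. Igfbp4 was 16.7, 17.2, 13.4 and 7.87 TPM in contralateral, 33.8, 30.9, 26.1 and 17.1 TPM in Tdt- and 77.5, 73.0, 82.1 and 73.7 TPM in Tdt+ libraries. Tdt+ and contralateral libraries did not overlap, as for 7.05% of genes, nor did Tdt+ and Tdt-, as for 3.15%. Tdt+ libraries exceeded contralateral ones by 2.44 ± 0.25 (limma, adjusted p = 0.000495), and higher than in Tdt- by 1.51 ± 0.25 (adjusted p = 0.208; 0.00549 with the block). Lifr, the leukaemia inhibitory factor receptor that pairs with gp130, was 187, 166, 153 and 128 TPM in contralateral and 88.2, 80.6, 61.6 and 84.4 TPM in Tdt+ libraries. It was lower by -1.0 ± 0.15 (adjusted p = 0.00424). In Tdt+ against contralateral these were the genes that passed of 5 tested in the IGF axis and 8 among gp130 genes. Of all genes 1.35% passed there. None passed of 11 in the CSF1R axis list, 6 progranulin partners, 4 in the PDGF and VEGF axis or 5 in the EGF family list. Nor did any of 5 other neurotrophic factors, 8 of the integrated stress response or 8 immediate early genes.

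Whether LPS altered the group differences was tested by interactions over the day 28 and LPS tables. No member of 8 passed in Tdt+ against contralateral (0.555% of genes passed), in Tdt+ against Tdt- (0%) or in Tdt- against contralateral (0.0205%) by limma. At an unadjusted p under 0.05 there were 1151, 579 and 794 genes, and 2, 1 and 1 members. The Csf1r interaction for Tdt+ against contralateral was -0.43 ± 0.16 (limma, adjusted p = 0.388), and with the block it was the 1 member that passed (adjusted p = 0.0411), where 2.47% of genes did. The interaction of Grn was 0.28 ± 0.12 (adjusted p = 0.553) and that of Csf1 -0.13 ± 0.41 (adjusted p = 0.984). Igfbp4 passed with 2.19 ± 0.38 (adjusted p = 0.00482); it was 15.6 to 33.3 TPM in contralateral and 22.9 to 47.1 TPM in Tdt+ libraries without LPS. Lifr passed with -0.99 ± 0.23 (adjusted p = 0.0437), a call lost in most alternatives.

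Levels in separately normalized tables were set side by side without a test. Contralateral Csf1 was 5.86 to 7.67 TPM at day 28 and 19.4 to 26.8 TPM after LPS, contralateral Grn 1250.5 to 1355 and 1912 to 2104 TPM, and contralateral Pdgfb 29.3 to 36.7 and 15.2 to 19.7 TPM. Tables also differed where labels did not. Day 28 Tdt+ libraries had 9.73 to 12.8 TPM of Csf1 and 1674 to 2010 TPM of Grn in the time course, but 1.47 to 7.36 and 1194 to 1374 TPM in the day 28 table. Day 7 Tdt+ libraries had 5279 to 6365 TPM of Csf1r in the time course and 3402 to 4147 TPM in the day 7 table. Tables of the same day and sort thus differed without LPS, so LPS and the table cannot be told apart in these levels.

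Genes whose pattern was most like a member's were ranked by Pearson's r of log2(TPM + 1) over the 52 libraries, each gene centred within its table, as a description in which libraries share tables and time points. Csf1r went with Cmtm6 (r = 0.89), Golm1 (r = 0.87) and Adgrg1 (r = 0.86), and Igf1 with Ftl1 (r = 0.89), Akr1a1 (r = 0.86) and Gas7 (r = 0.82). Pdgfb went with Smap2, Arhgef40 and Soga1 (r = 0.84 each), and Osm with H3f3b (r = 0.79), Cirbp (r = 0.77) and Ypel5 (r = 0.76). The nearest genes of the others were less close: Grn with Atp6v0c (r = 0.69), Pld3 (r = 0.68) and Pkm (r = 0.67), Pdgfa with Suox (r = 0.69), Adprh (r = 0.62) and Lpxn (r = 0.61), and Csf1 with Sdcbp (r = 0.64), Ctsb (r = 0.63) and Gstm1 (r = 0.60). Among the members Igf1 and Pdgfb were the most opposed pair (r = -0.73), Igf1 and Grn went together (r = 0.63), and Csf1 and its receptor were near 0 (r = -0.10).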

How the data were processed

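The authors deposited 4 tables of TPM, a length-corrected abundance, from bulk RNA of sorted mouse microglia. Per the submitters' processing notes, cutadapt 2.10, STAR 2.7.5c and RSEM 1.3.3 were used with GRCm38; the settings are not given in the sources used here. TPM keeps no depth, so precision comes from the spread between libraries alone, and the labels do not say which libraries are separate animals. Of 60 samples, 52 bulk libraries were used; the others (6 ATAC, 2 pools of single cells) are not analysed here. Columns matched to no sample (7, contralateral Tdt+ by name) were not used.

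Groups came from the labels. limma 3.58.1 (R 4.3.3) was fitted to log2(TPM + 1) with an intensity trend, over genes reaching 1 TPM in a number of libraries equal to the smallest group's, all groups of a table together. Benjamini-Hochberg adjustment ran over every gene of a fit, at a threshold of 0.05, and the procedure was first tested on simulated data. A log2 difference on this scale understates changes of low genes. 1 gene of the microglia marker list is not reported here and was left out of its sums. The members and lists were chosen with earlier results of these data known. Named are all 10 members, up to 2 rises and 2 falls that passed per pathway list and comparison (the largest sets described in part), and the 3 genes most like a member; pathway ranges over all libraries were chosen after their values were seen.

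Replicate numbers were taken to pair samples where the deviations of every same-numbered pair correlated above 0.1. After LPS they did so for Tdt+ and contralateral (r 0.194 to 0.551) and for Tdt+ and Tdt- libraries (0.123 to 0.524). Tdt- and contralateral libraries after LPS missed this rule (0.074 to 0.563), but the block was fitted over all groups of the table. Alternatives were the pseudocounts 0.1 and 5, no filter and a minimum of 10 TPM, quantile and median-of-ratios scaling, no trend, only the groups compared, the replicate block and each library left out. Leaving out LPS libraries numbered 4, and the block with a library left out, were chosen after seeing the data.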

Additional observations from a re-analysis of the deposited data

Results flagged for a closer look

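Of 90 groups of 4 or 5 libraries checked over the members, 14 held a library far from the others of its group. The rule used gives about 1 in 20 for normally distributed values. TPM values need not be so distributed, and a lone value above 0 is flagged whatever its level. The 14 therefore do not measure an excess over chance.

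Osm after LPS gave one in each group, always number 4: 214.86 TPM in contralateral (nearest library 15.37), 111.9 in Tdt- (nearest 10.11) and 61.31 in Tdt+ (nearest 14.33). The other 3 libraries of each group were at 6.37 to 15.37 TPM, and summed immediate early genes were 2060 to 3413 TPM in the libraries numbered 4 against 415.4 to 647.3 TPM in the rest. What sets these libraries apart was not tested.

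Hbegf gave 3 in the time course, 7.24 TPM at day 3 (nearest 1.01), 13.98 TPM at day 14 (nearest 5.65) and 4.73 TPM at day 28 (nearest 1.35). Pdgfb was 25.49 TPM in 1 day 7 library of the time course (nearest 17.4), 25.53 TPM in 1 of day 28 (nearest 35.25) and 15.21 TPM in contralateral library 1 after LPS (nearest 18.97). Igf1 after LPS was 9.18 TPM in Tdt+ library 3 (nearest 0.42) and 0.66 TPM in contralateral library 1 (nearest 0.1). The remaining values lie close to 0: Vegfa at 0.11 TPM and Gdf15 at 0.32 TPM in contralateral libraries 2 and 1 after LPS, and Gdf15 at 0.31 TPM in Tdt- library 3 of day 28, with every other library of those groups at 0.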

How the results depend on the processing

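Member counts at day 7, at day 28 and in the other interactions and comparisons after LPS were 0 under every alternative run. In Tdt+ against contralateral after LPS the count was 0, and 3 with the replicate block; with the block and any 1 library left out it was 0 to 2. In the LPS interaction of that contrast the replicate block gave 1 (Csf1r, limma adjusted p = 0.0411), but day 28 numbers missed the rule for pairing (r from -0.008). Numbers at day 7 (r from 0.033) and in the time course (r from -0.031) missed it too. The most correlated library still had the same number for 3 or 4 of 4 libraries at day 28, by the groups paired. It did for 2 or 3 of 3 libraries at day 7 and for at most 2 in the time course. The rule thus does not settle whether numbers pair samples at days 7 and 28. For day 28 against day 14 the count of 1 became 0 without a filter, without a trend, with the block and with only the groups compared, 2 with a minimum of 10 TPM and with either scaling, and 0 to 1 with a library left out. For day 14 against day 7 the count of 2 became 1 with either scaling and with only the groups compared, and 1 to 2 with a library left out. Day 7 against day 3 (6 members) ranged from 4 to 6 and day 28 against day 3 (6 members) from 4 to 7. Among called genes, directions reversed for Csf1r (-0.09) and Atf4 (-0.10) under median-of-ratios scaling and for Tyrobp (0.12) under quantile normalization, all day 28 against day 3; the cause was not tested. Counts over all genes moved in several comparisons. Tdt+ against contralateral after LPS had 181 calls against 930 with the block, 111 without a trend, 333 without libraries numbered 4 and 77 to 193 with a library left out. With the block its interaction had 360 against 81, and that of Tdt- against contralateral 43 against 3. After LPS the block gave 62 against 0 in Tdt+ against Tdt-, and 119 against 2 in Tdt- against contralateral. Day 28 against day 14 had 961 against 438 with only the groups compared. Day 28 against day 3 had 6681 against 4047 (quantile) and 4053 (median-of-ratios). Day 7 Tdt+ against contralateral had 9 against 27 with the block, where numbers missed the rule for pairing. Of 1262 values under alternatives for genes called as reported, 1109 kept the call and its direction, 150 lost the call and 3 reversed; of 2183 for genes not called, 126 changed sign and 20 became called. Unknown depth limits Vegfa, Gdf15, Hbegf and late Igf1.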
